A study of Phalaenopsis aphrodite with 54 samples.

Results

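The lip and the sepal of the moth orchid flower were compared on 4 arrays, out of 54 in the series. The arrays were chosen by their labels alone: every array with amplified RNA of a V3 lip (2 arrays) or a V3 sepal (2 arrays) was taken, and no measured value entered the choice. Lips and sepals came from mature flowers of the tetraploid *Phalaenopsis* hybrid Sogo Yukidian V3, and no allele or treatment separated the groups. Other amplified arrays were normalized and fitted with them, and some of their levels are cited below. These were of other V3 floral organs, V3 buds, V3 flowers before and after pollination, and tissues of *P. aphrodite*. The custom array carried probes for 43662 assembled transcripts (contigs) of *P. aphrodite*, so RNA of a hybrid was read by probes of another genotype. Each of 2 slides held 1 lip and 1 sepal array, called slide 1 and slide 2 here, and each slide was scanned in its own batch. The study's methods describe separate collections for the floral organs, but the labels do not say which plants or flowers an array stands for. The p-values therefore measure the spread between replicate arrays of these and some other conditions, given below, and that spread may be technical.

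The sepals form the outer whorl of the orchid perianth. The inner whorl holds the petals and the lip, a petal of altered shape on which pollinating insects land. Floral organ identity in flowering plants is set largely by MADS box transcription factors, which act in combinations described by the ABCDE model: class A genes with class E genes specify the outermost organs, class B genes are added in the petals, and class C and D genes act in the reproductive organs and ovules. Orchids carry several copies of the class B gene *AP3*. The comparison of lip with sepal sets an inner perianth organ of specialised shape against an outer one.

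On the lip and sepal arrays, 75.2% to 76.5% of spots exceeded background clearly by the scanner software's own test, without saturation, and the 75th percentile of the intensities was 5775 and 5225 on the lip arrays and 5852 and 5445 on the sepal arrays. All levels below are log2 values of normalized intensity with a floor of 4.32, and levels of different contigs cannot be set against each other, since each has its own probe. The contigs of ubiquitin (PATC150470) and actin (PATC135993), which the study used as internal controls, differed little between lip and sepal. Their differences were 0.17 (standard error 0.17) and 0.10 (standard error 0.12) at adjusted p = 0.512 and 0.604 in limma. Of the pollinia markers, 4 of 6 were above background on both arrays of each organ, with a summed level of 11.99 and 11.92 in lips and 11.95 and 11.91 in sepals, against 18.94 in pollinia. The 4 with signal in both organs were *PaMdP-1*, *PabHLH-3*, *PabZIP-2* and *PaMYB-2*. The other 2, *PaMdS-1* and *PaAP2-7*, were at the floor on all 4 arrays.

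Tested were the 31147 contigs that the scanner software marked as well above background on both lip arrays or on both sepal arrays. Of these, 29552 were well above background on all 4 arrays. Differences are given as lip minus sepal, and a contig was called at over 4-fold with an adjusted p under 0.05 in limma. Called were 1338 contigs (4.3% of those tested), of which 601 were higher in lip (1.93%) and 737 higher in sepal (2.37%). Without the fold threshold, 11660 contigs (37.4%) passed, 6065 contigs (19.5%) were higher in lip and 5595 (18%) were higher in sepal, and the median difference over all contigs tested was 0.03. Between the arrays of 1 organ, 27 contigs differed by over 4-fold in lips and 26 in sepals. An exact permutation test of 2 arrays against 2 cannot go below p = 0.333, so the tests rest on a spread that limma shared over 6 conditions. These were the V3 lip, sepal and petal and the *P. aphrodite* inflorescence, young inflorescence and bud. The median difference between replicate arrays was 0.09, 0.10, 0.18, 0.19, 0.14 and 0.14 in that order. Each of these 6 conditions had 1 array in scan batch 2 and 1 in scan batch 3, and no other condition did. Slides 1 and 2 were scanned in these same batches. The main fit had no term for slide or batch, and the part of the batches in this spread was not tested. In samples of whole organs, fewer cells of a type and less RNA per cell cannot be told apart.

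The contigs higher in sepal were more numerous, and those higher in lip reached further. Over 8-fold, 261 contigs were higher in lip and 220 higher in sepal. Over 32-fold the numbers were 69 and 19, and over 64-fold they were 30 and 1. The median difference was 2.89 among the contigs higher in lip and -2.63 among those higher in sepal. In both directions a minority was not well above background in the other organ. Of the 601 contigs higher in lip, 107 were well above background on no sepal array. Of the 737 higher in sepal, 89 were so on no lip array. Among all 31147 contigs tested, 465 were well above background on no sepal array and 341 on no lip array. Such contigs entered the test only through the other organ.

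**Figure D1:**
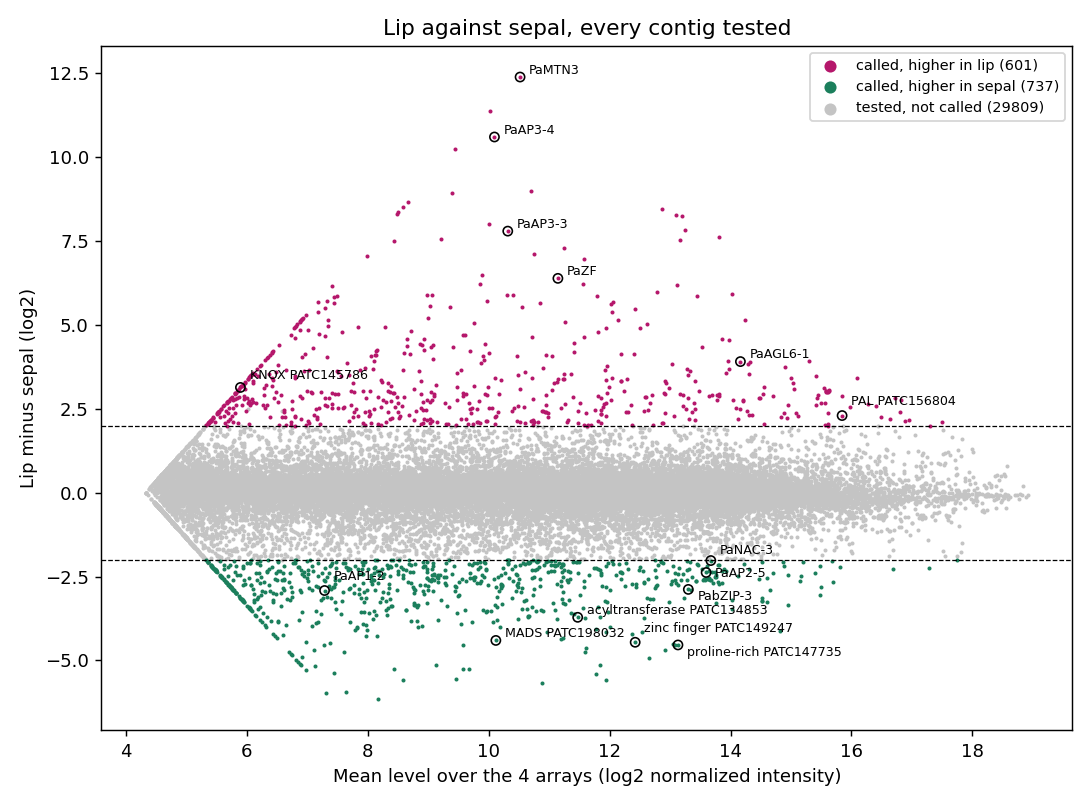
Difference between lip and sepal (vertical axis, lip minus sepal, log2) against the mean level over the 4 arrays (horizontal axis, log2 normalized intensity) for the 31147 contigs tested, with called contigs in colour, the 4-fold limits as dashed lines and the called contigs of the study's genes circled. The points over 6 on the vertical axis number 30, while 1 contig lies under -6; the straight edges at the left are contigs at the floor in 1 organ.

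The slides gave nearly the same differences. All 1338 called contigs had the same direction on slide 1 and on slide 2, and 1256 of them exceeded 4-fold on each slide by itself. Calls were made on the mean of these slide differences, so agreement among the called contigs was largely fixed by the choice. The median size of the difference between the slides was 0.11 among the called contigs, and 12 contigs differed between the slides by over 1. Across all contigs tested, which are not independent replicates, the differences on the slides had a Pearson correlation of 0.966. With each probe tested by itself, 4.06% of the probes were called. A second probe lies elsewhere on the same contig and is another measure of its RNA. Of 767 called contigs whose second probe was also tested, 766 had the same direction with that probe, and 688 were also called with it. The 1 contig with an opposite direction did not pass the test with its second probe.

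**Figure D2:**
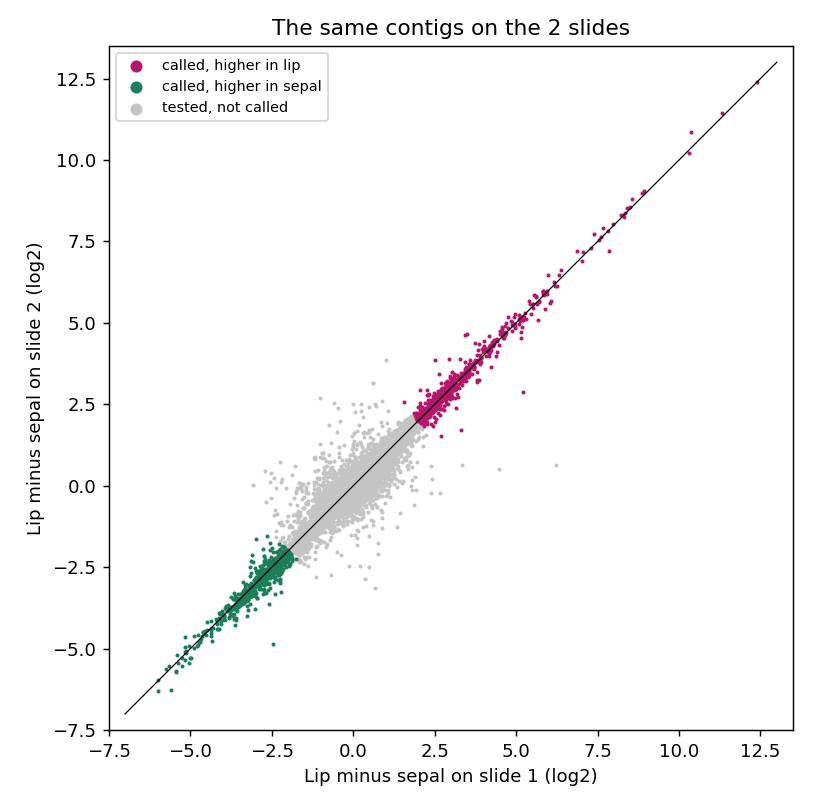
Lip minus sepal (log2) on slide 1 (horizontal axis) and on slide 2 (vertical axis) for each contig tested, with the line of equal values. The called contigs in colour, which were chosen on these same values, lie along the line, with a median distance of 0.11 between the slides. The 18 contigs over 4-fold on 1 slide and of opposite sign on the other are among the grey points.

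The study names 45 contigs, most of them MADS box genes and other transcription factors, and 44 had a probe. Of these, 40 were tested, with 7 called higher in lip and 8 higher in sepal, beside a background of 1.93% and 2.37% of all contigs. The study picked many of these genes for their pattern in floral organs, some of it on the same arrays, so the share is a description of the list. At an adjusted p under 0.05 without a fold threshold, 13 were higher in lip, 18 were higher in sepal and 9 passed in neither direction, beside 19.5% and 18% of all contigs in each direction. Related MADS box contigs may hybridise to each other's probes, and this was not tested.

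Among the class B genes, *PaAP3-4* (PATC154853) gave the largest difference of the named MADS box contigs. Its level was 15.42 and 15.37 on the lip arrays and 5.05 and 4.53 on the sepal arrays. The sepal levels lay just over the floor, although both counted as well above background. *PaAP3-4* was thus 1557-fold higher in lip (difference 10.60, standard error 0.16, adjusted p = 3.66e-09). *PaAP3-3* (PATC138350) stood at 14.26 and 14.16 in lips and at 6.58 and 6.25 in sepals. This made 222.7-fold higher in lip (difference 7.80, standard error 0.15, adjusted p = 1.12e-08), and its second probe gave 7.82. For both genes the lip and sepal arrays were far apart on each slide. With normexp background correction, which lifts dim signals, the differences were 8.94 for *PaAP3-4* and 6.86 for *PaAP3-3*.

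The other class B genes had high signal in both organs. *PaPI-1* (PATC152852), the copy of *PISTILLATA*, whose product pairs with AP3 proteins, was at 16.84 and 16.76 in lips and 16.19 and 16.12 in sepals. The difference was 0.65 (standard error 0.07, adjusted p = 1.94e-04), which is under 4-fold. *PaAP3-2* (PATC133864) ran the other way, at 12.09 and 11.93 in lips and 12.65 and 12.48 in sepals. It was lower in lip by a small margin (difference -0.56, standard error 0.13, adjusted p = 0.00952). The lip levels of *PaAP3-2* lay under both sepal levels. Without lip replicate 2 or without sepal replicate 1 the difference was -0.47 each time and missed the threshold (adjusted p = 0.0683 and 0.0674). *PaAP3-1* was not analysed here.

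In class A, as the study groups it, *AGL6* and *AP1* copies split in direction. *PaAGL6-1* (PATC154379) reached 16.14 and 16.10 in lips and 12.23 and 12.19 in sepals, and was 15.03-fold higher in lip (difference 3.91, standard error 0.09, adjusted p = 2.04e-08). Both sepal arrays were well above background, so the contig was measured in both organs. Its second probe gave 3.89. *PaAGL6-2* (PATC138772) was lower in lip, at 13.12 and 13.16 against 14.79 and 14.69 in sepals (difference -1.60, standard error 0.08, adjusted p = 9.95e-07). The copies of *AGL6* therefore differed in opposite directions, each by more than the spread of its arrays.

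*PaAP1-2* (PATC154931) was at 5.95 and 5.71 in lips and 8.78 and 8.71 in sepals, which made it 7.54-fold lower in lip (difference -2.91, standard error 0.15, adjusted p = 1.28e-06). With normexp background correction the difference was -1.91 and under 4-fold. *PaAP1-1* (PATC145405) was slightly higher in lip, at 7.18 and 7.23 against 6.72 and 6.76 in sepals (difference 0.47, standard error 0.08, adjusted p = 0.00175). Its second probe gave 0.20 at an adjusted p of 0.629 in limma, so only the brighter probe passed that threshold, and neither was over 4-fold.

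The class E genes are *SEPALLATA* copies whose products join the other classes in protein complexes. At an adjusted p under 0.05 in limma, 2 of 3 copies were lower in lip, beside 18% of all contigs. *PaSEP-3* (PATC152066) was at 13.34 and 13.18 in lips and 14.33 and 14.22 in sepals (difference -1.02, standard error 0.14, adjusted p = 5.74e-04). *PaSEP-2* (PATC141808) was at 15.01 and 15.01 in lips and 15.75 and 15.80 in sepals (difference -0.77, standard error 0.07, adjusted p = 5.77e-05). *PaSEP-1* (PATC138540) gave -0.18 with an interval at 95% of -0.44 to 0.08 and did not pass the test. None of the 3 was over 4-fold apart.

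The class C and D genes are known for the reproductive organs. Of the 5 tested *AGAMOUS*-like contigs 0 were called, which is near the share of 4.3% among all contigs. At an adjusted p under 0.05 in limma without a fold threshold, 2 were higher in lip and 2 higher in sepal, beside 19.5% and 18% of all contigs. The summed level over 6 such contigs was 8.63 and 8.46 in lips and 9.45 and 9.19 in sepals, against 18.38 in the column. *PaAG-2* (PATC138585) was at 6.17 and 5.74 in lips and at the floor on both sepal arrays. With the floor of 20 this makes it at least 3.10-fold higher in lip (adjusted p = 2.71e-05). Its difference was 0.68 after normexp background correction and 2.16, over 4-fold and called, with a floor of 5. *PaAG-1* (PATC052371) and PATC209388 were lower in lip, with differences of -1.67 (standard error 0.12, adjusted p = 1.31e-05) and -1.75 (standard error 0.11, adjusted p = 4.60e-06). *PaAG-3* gave 0.45 (adjusted p = 0.0136) and PATC119249 gave 0.39 (adjusted p = 0.155, and 0.0457 with the slide as a block over the 4 arrays). *PaAG-4* was well above background on no lip array and on 1 sepal array, and was not tested.

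Of the remaining MADS box contigs, PATC198032 had the largest difference toward the sepal. It was at 8.02 and 7.81 in lips and 12.39 and 12.25 in sepals, or 21.1-fold lower in lip (difference -4.40, standard error 0.12, adjusted p = 4.73e-08). *PaSOC1-3* (PATC154491), related to a flowering time regulator of *Arabidopsis*, was at 12.16 and 12.13 in lips and 10.65 and 10.68 in sepals. It was higher in lip by 1.48 (standard error 0.10, adjusted p = 5.49e-06), under 4-fold. *PaMdP-1* gave 0.23 at an adjusted p of 0.0524, and 0.0158 with the slide as a block over the 4 arrays. Over the 19 MADS box contigs tested, 3 were called higher in lip and 2 higher in sepal, beside 1.93% and 2.37% of all contigs, and the median size of their differences was 1.48, beside 0.27 for all contigs tested.

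**Figure D3:**
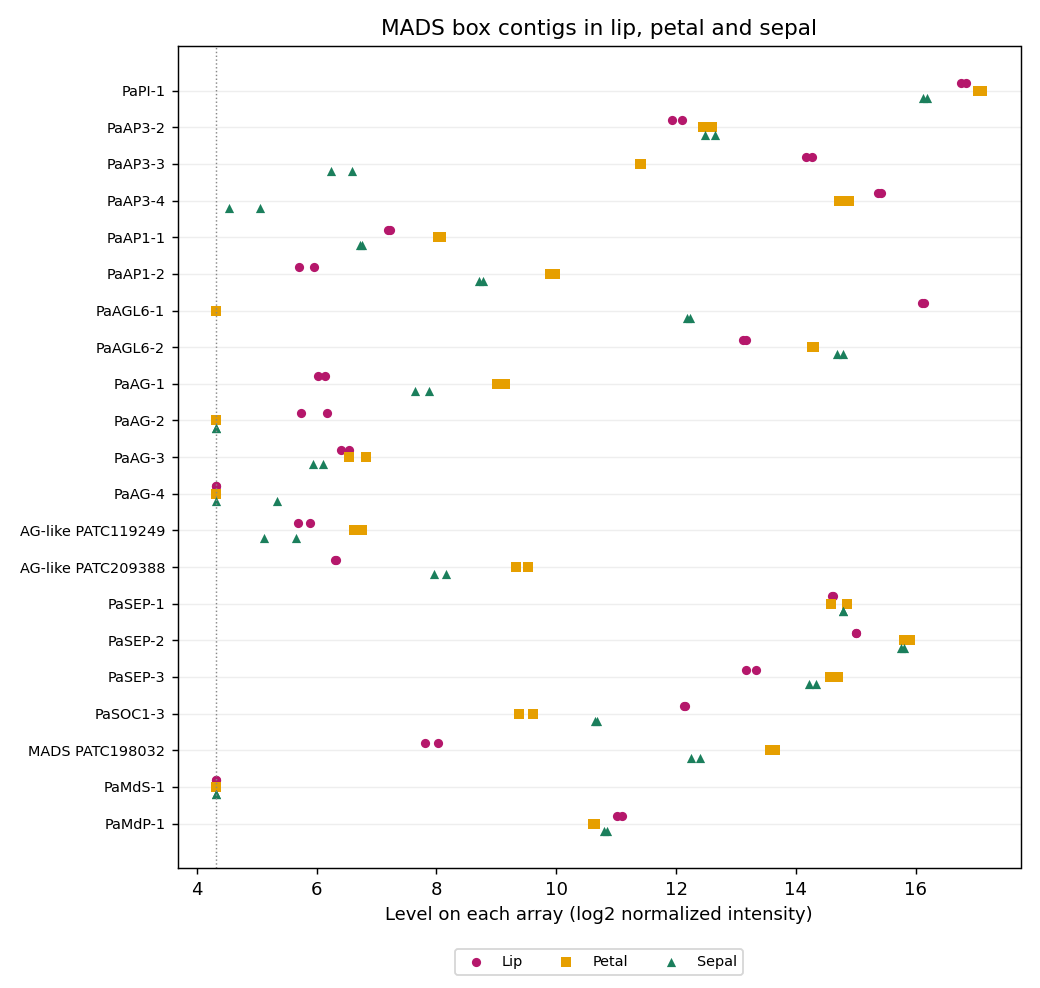
Level of each MADS box contig on every lip (circles), petal (squares) and sepal (triangles) array (horizontal axis, log2 normalized intensity; the dotted line is the floor). *PaAP3-4* and *PaAP3-3* stand over 14 in lips and under 7 in sepals, PATC198032 lies the other way round, and *PaAGL6-1* is at the floor in petals.

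Of 10 other transcription factors tested, 1 was called higher in lip and 4 higher in sepal, beside 1.93% and 2.37% of all contigs. At an adjusted p under 0.05 without a fold threshold 2 were higher in lip and 7 higher in sepal, beside 19.5% and 18% of all contigs. The 1 contig called higher in lip was *PaZF* (PATC129930), a zinc finger gene, at 14.36 and 14.32 in lips and 8.05 and 7.85 in sepals. *PaZF* was 83.9-fold higher in lip (difference 6.39, standard error 0.14, adjusted p = 1.85e-08), and its second probe gave 6.68. A second putative zinc finger gene, PATC149247, was at 10.29 and 10.10 in lips and 14.77 and 14.53 in sepals. It was 22.0-fold lower in lip (difference -4.46, standard error 0.23, adjusted p = 1.44e-06), so the named zinc finger contigs lay in opposite directions.

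*PabZIP-3* (PATC136849), a bZIP gene, was at 11.81 and 11.92 in lips and 14.75 and 14.74 in sepals (difference -2.88, standard error 0.09, adjusted p = 1.11e-07). *PaAP2-5* (PATC133172), of the AP2 family, was at 12.31 and 12.51 in lips and 14.67 and 14.90 in sepals (difference -2.38, standard error 0.17, adjusted p = 1.12e-05). *PaNAC-3* (PATC138298), of the plant-specific NAC family, was at 12.58 and 12.75 in lips and 14.70 and 14.67 in sepals (difference -2.02, standard error 0.26, adjusted p = 4.01e-04). For these 3 genes no lip array reached a sepal array. *PaNAC-3* lay at the 4-fold limit, and without lip replicate 1 its difference was -1.94 and no longer called.

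Smaller differences were found for *PaMYB-2* (-1.12, standard error 0.14, adjusted p = 3.50e-04) and *PabHLH-1* (-0.88, standard error 0.07, adjusted p = 2.36e-05), both lower in lip. *PaMYB-4* was higher in lip by 0.39 (standard error 0.09, adjusted p = 0.00726). *PabHLH-3* gave -0.27 (adjusted p = 0.0288), and *PabZIP-2* gave 0.20 with an interval at 95% of -0.06 to 0.46, and passed with the slide as a block over the 4 arrays (adjusted p = 0.0414). A *KNOX* homeobox contig, PATC145786, of a family known for keeping meristem cells undetermined, was at 7.52 and 7.40 in lips and at the floor in sepals. It was at least 8.81-fold higher in lip (adjusted p = 5.55e-08), and with normexp background correction the difference was 1.52 and under 4-fold. Its second probe gave 2.05. The other *KNOX* contig, PATC127065, was well above background on 1 lip array and no sepal array and was not tested.

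Outside the transcription factors, *PaMTN3* (PATC138503) had the largest difference of all contigs. It was at 16.73 and 16.70 in lips and at the floor on both sepal arrays, which makes it at least 5375-fold higher in lip (adjusted p = 2.89e-11), and its second probe gave 12.29. MtN3 proteins form the SWEET family, which carries sugars across membranes in other plants. PATC126569, a contig with no gene name in the files, was next by this order, at 15.63 and 15.78 in lips and at the floor in sepals. With the same floor it was at least 2668-fold higher in lip (adjusted p = 2.04e-08 in limma). In both contigs every lip array was bright and no sepal array was above background. For *PaMTN3* the difference was 10.51 with normexp background correction and 14.29 with a floor of 5, so its size depends on how dim signals are treated.

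Phenylalanine ammonia-lyase, the entry enzyme of phenylpropanoid metabolism, was higher in lip. Its contig PATC156804 was at 16.97 and 17.02 in lips and 14.59 and 14.80 in sepals, or 4.93-fold higher (difference 2.30, standard error 0.09, adjusted p = 2.93e-07). The tyrosine decarboxylase contigs PATC138942 and PATC149447 differed by 0.03 (interval at 95% of -0.31 to 0.37) and 0.09 (interval of -0.12 to 0.31). Neither passed the test, with adjusted p = 0.911 and 0.501 in limma.

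Toward the sepal, the putative proline-rich protein contig PATC147735 was at 10.87 and 10.85 in lips and 15.47 and 15.33 in sepals. It was 23.2-fold lower in lip (difference -4.54, standard error 0.15, adjusted p = 1.10e-07). The acyltransferase contig PATC134853 was at 9.55 and 9.68 in lips and 13.26 and 13.40 in sepals, or 13.1-fold lower in lip (difference -3.71, standard error 0.13, adjusted p = 2.10e-07). The second acyltransferase contig, PATC196836, was at the floor in lips and at 6.28 and 6.22 in sepals, so with the floor of 20 it was at least 3.80-fold lower in lip (adjusted p = 1.68e-06). The size of its difference varied with the processing, being -2.79 and called with a floor of 5, -1.34 with quantile normalization among the 12 floral organ arrays, and -0.88 with normexp background correction. The leucine-rich repeat kinase PATC139333 gave -0.68 (interval at 95% of -1.27 to -0.10), at an adjusted p of 0.0668 in limma. Both slides gave a lower level in lip (-0.60 and -0.76), and with the slide as a block over the 4 arrays it passed (adjusted p = 0.00507). The block over all arrays gave an adjusted p of 4.54e-08, but that fit counted every array as a replicate. With every array counted and no block, the adjusted p in limma was 4.56e-04.

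The largest differences toward the sepal belonged to contigs that the files do not name. PATC138957 was at 5.18 and 4.98 in lips and 11.18 and 11.29 in sepals, or 71.1-fold lower in lip (difference -6.15, standard error 0.17, adjusted p = 5.84e-08). PATC133276 was at the floor in lips and at 10.32 and 10.29 in sepals, or at least 63.3-fold lower in lip (adjusted p = 7.74e-10). For each contig the sepal arrays lay close together and no lip array came near them.

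**Figure D4:**
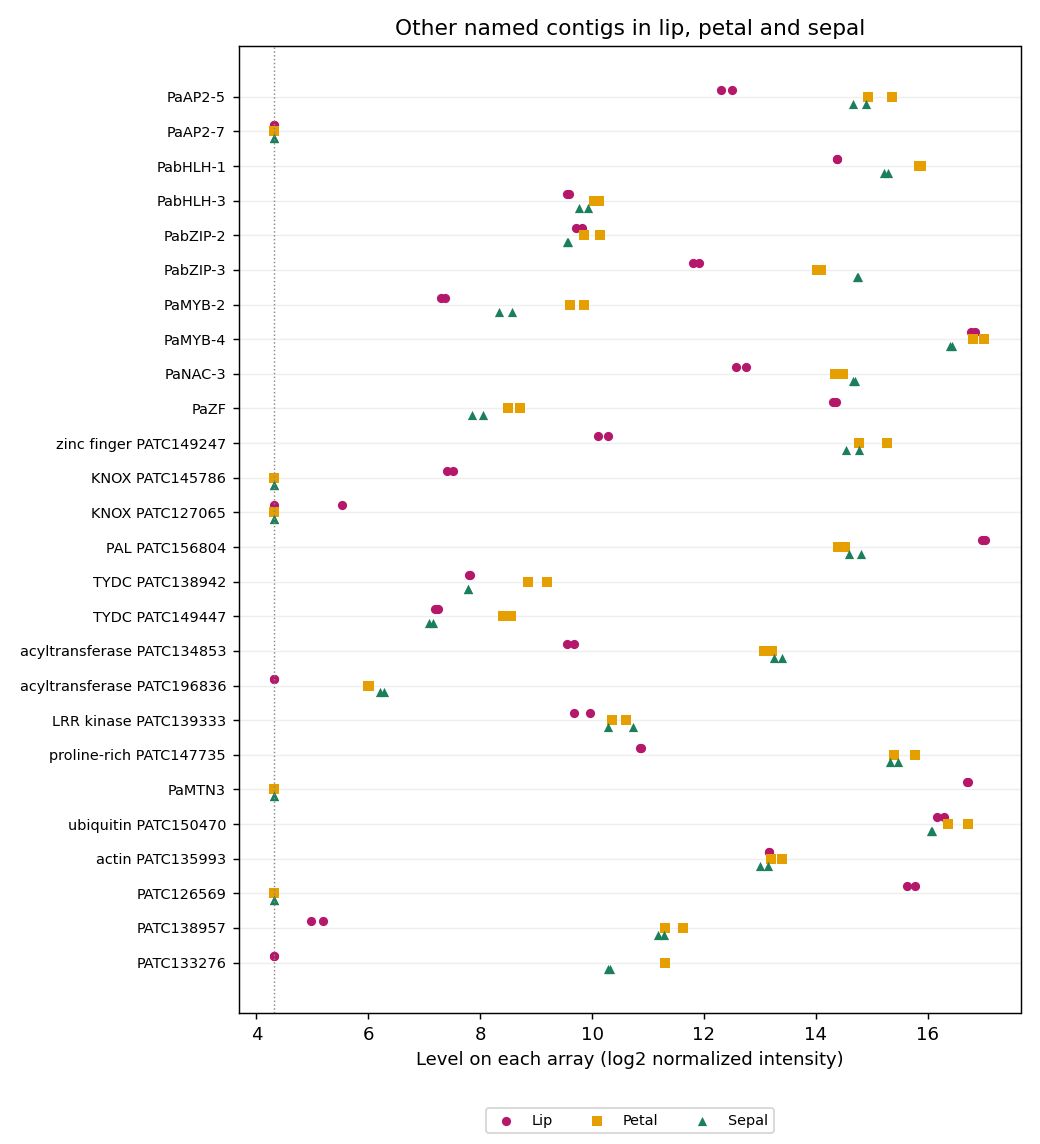
Level of the other named contigs and of the contigs with the largest differences on every lip (circles), petal (squares) and sepal (triangles) array (horizontal axis, log2 normalized intensity; the dotted line is the floor). *PaMTN3* and PATC126569 have signal in lips only among these 3 organs, while PATC138957 and PATC133276 are over 10 in petals and sepals and under 6 in lips.

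The petal lies in the same whorl as the lip, and its levels did not enter the difference by which contigs were called, although its arrays were normalized and fitted together with the others and so shared in the estimate of spread. Among the 601 contigs higher in lip than in sepal, the median level was 10.74 in lips, 7.76 in petals and 7.24 in sepals. Among the 737 higher in sepal it was 7.45 in lips, 10.23 in petals and 10.31 in sepals. The petal median thus lay near the sepal median in both sets. All contigs tested had medians of 11.16 in lips, 11.13 in petals and 11.14 in sepals. In the column the medians were 9.88 for the contigs higher in lip and 7.15 for those higher in sepal, on the side of the lip both times.

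The fit also gave lip against petal and petal against sepal, with 2110 of 31284 contigs (6.74%) and 680 of 30920 contigs (2.2%) called. These comparisons share the lip, petal and sepal arrays with the one described here, and the petal arrays differed more from each other than the lip or sepal arrays did (median 0.18, against 0.09 and 0.10). For *PaZF*, the lip exceeded the petal by 5.73 (adjusted p = 2.08e-08) and the petal exceeded the sepal by 0.66 (adjusted p = 0.00380). *PaAP3-4* showed the other arrangement: lip minus petal was 0.59 (adjusted p = 0.0115), and petal minus sepal was 10.02 (adjusted p = 3.64e-08). Of the 601 contigs higher in lip, 435 (72.4%) were, like *PaZF*, called higher in lip than petal but not higher in petal than sepal. The arrangement of *PaAP3-4* was found in 15 (2.5%). *PaAP3-3* differed at both steps, by 2.81 between lip and petal (adjusted p = 1.34e-06) and by 4.99 between petal and sepal (adjusted p = 6.68e-07).

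*PaAGL6-1* had yet another arrangement, with the petal lowest. Neither petal array was above background, so the sepal exceeded the petal, with petal minus sepal at -7.89 (adjusted p = 2.63e-09). For PATC149247, PATC147735, *PaAP2-5* and PATC134853, lip minus petal lay between -2.74 and -4.83 and petal minus sepal between -0.18 and 0.37. Those 4 differences between petal and sepal did not pass the test, with adjusted p from 0.101 to 0.308. PATC198032 was highest in petals, at 13.65 and 13.57, with petal minus sepal at 1.29 (adjusted p = 7.33e-05).

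Beyond the perianth, the contigs higher in lip differed in where else they were measured. *PaMTN3* was at the floor in petals, columns, pollinia, pedicels and buds, and at 16.20 in whole V3 flowers. *PaAP3-3* and *PaAP3-4* were also high in the column, at 13.82 and 13.72, while PATC145786 was higher in pedicels (14.48) than in lips. Phenylalanine ammonia-lyase was at 16.55 in columns and 15.81 in roots. Leaf and root levels in this paragraph are from *P. aphrodite*, and all others are from V3. Of the contigs higher in sepal, PATC198032 was at the floor in pollinia, leaves and roots, PATC149247 and PATC147735 were at 11.58 and 12.40 in leaves, and *PabZIP-3* was at 15.83 in roots. Of the 15 called contigs that the study names, *PaMTN3* alone was at the floor in every floral organ but 1.

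**Figure D5:**
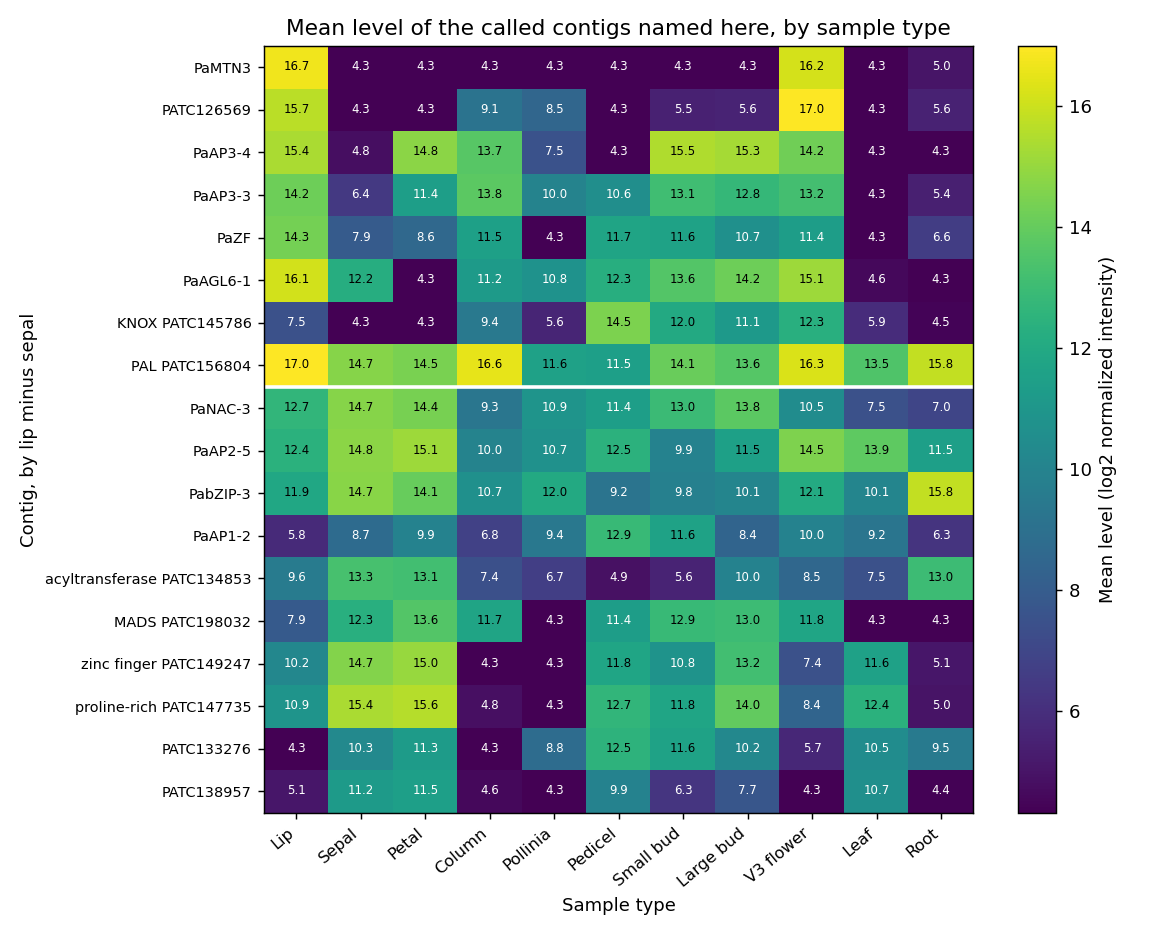
Mean level (colour and printed value, log2 normalized intensity) of the 15 called contigs of the study's genes and the 3 unnamed contigs with the largest differences (rows, ordered by lip minus sepal, with the white line between directions) in 11 sample types (columns). Leaf and root are from *P. aphrodite*, and all other columns are from V3. *PaMTN3* reads 16.7 in lips, 16.2 in V3 flowers and 4.3 in sepals, and PATC147735 reads 10.9 in lips and 15.4 in sepals.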

How the data were processed

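The deposited intensities were the processed signals of single Cy3 arrays, which the authors obtained with Feature Extraction 10.7.1.1 and which the software had corrected for background. The deposited table of log2 values equals the log2 of these signals with a floor of 20 minus a constant for each array, to within 2.71e-06; its column medians were -2.71 and -2.70 for lips and -2.69 and -2.67 for sepals, and it served as an alternative, while the methods name quantile normalization. RNA was amplified before labelling. Probe sequences and gene descriptions were not used here.

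A floor of 20 was applied before log2. Outlier spots were dropped before the mean over the 2 spots per probe was taken, the 41 amplified arrays were quantile normalized in 1 set, and a contig was read from its brightest probe. Detection of a probe needed the software's mark well above background on at least 0.5 of its spots. limma 3.58.1 in R 4.3.3 fitted 1 coefficient for each of 20 conditions, with Benjamini-Hochberg adjustment over the contigs tested. Replicate arrays whose difference did not exceed that of spots within an array were averaged, which left 26 replicates, with lip, sepal and petal at 2 each, and 6 residual degrees of freedom. Where an organ was above background on no array, its fold is a bound from the lowest signal well above background, which was the floor on all 4 arrays. Such a bound holds for the main processing only. The number of arrays limits the precision. The 13 arrays without amplification were not used. Slide was tried as a block, and the block over all arrays counted every array as a replicate.

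Named are the contigs the study names and, in each direction, the first 2 contigs by fold. Members and lists were chosen with earlier results of these data known. The fit was also run on simulated data with independent noise and without a slide step or a floor, so no result above rests on it. Alternatives were other normalizations, floors, filters and probe rules, other fits, and leaving out each array.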

Additional observations from a re-analysis of the deposited data

Results flagged for a closer look

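In 18 contigs the difference between lip and sepal was over 4-fold on 1 slide and had the opposite sign on the other. None of them was called. The difference between the slides was not tested. Probes for 2 orchid viruses lie outside the comparison: on each lip and sepal array 0 of 8 were well above background, while on each array of whole V3 flowers 6 of 8 were, with a highest level of 9.23 and 9.25. Other samples had such signal too. V3 flowers 1 day after pollination had 2 of 8 on each array, at up to 8.45 and 8.49. The strongest signal was in *P. aphrodite* young inflorescences, with 6 and 5 of 8 and a highest level of 18.68 and 18.63. The part of this signal in any difference between flowers and organs was not tested.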

How the results depend on the processing

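The count of 1338 called contigs lay between 914 and 1557 under the alternatives that kept 1 probe rule per contig and the processed signal, and every called contig found again had the same direction. With each probe tested by itself, 2091 probes were called, 1203 of them higher in sepal, since contigs can then count more than once. With normexp background correction on median signals, chosen after seeing the data because the planned mean signals are not in the columns used here, 851 contigs were called and 447 were higher in sepal. With 1 array left out the counts were 1369 to 1418 in all, 597 to 645 higher in lip and 738 to 811 higher in sepal. With the slide as a block 1343 contigs (all arrays) or 1332 (the 4 arrays) were called, and 1338 and 1328 of the 1338 were among them. No paired analysis by replicate number was possible because the labels give these arrays no replicate numbers. The slide block takes its place and changed no call of a named contig at 4-fold. PATC139333, PATC119249, *PaMdP-1* and *PabZIP-2* gained an adjusted p under 0.05 with it in both fits. Over all arrays only, so did *PaSEP-1* and the internal controls ubiquitin (PATC150470, adjusted p = 0.0440) and actin (PATC135993, adjusted p = 0.0163). The block over all arrays also counted every array as a replicate, including those averaged in the main fit. With every array counted and no block, all of these but the internal controls passed too. Over 64-fold, between 20 and 42 contigs were higher in lip and between 0 and 4 higher in sepal. Of 744 values of named contigs under 19 alternatives, 704 stayed on their side of an adjusted p of 0.05 in limma, 17 lost it and 23 gained it, in 11 of 40 contigs, none with a difference over 0.75 in size. No contig past the threshold changed sign. The tyrosine decarboxylase contig PATC138942, which did not pass, gave -0.04 with the 75th percentile and with the deposited table. Signal over background limits the dimmest contigs, whose folds are bounds under the main processing only. A filter for signal on all 4 arrays, also chosen after seeing the data, left 1075 called contigs; the filter at a raw signal of 500 read median spot signals and left 914.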

Other observations

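Of the 1338 called contigs, 63.4% had a level in open V3 flowers closer to the lip than to the sepal. The share was 39.2% in flowers 1 day after pollination, 43% in large buds and 49.5% in *P. aphrodite* flowers. Among the organs it was 70.3% in columns, 52.1% in pollinia, 45.7% in pedicels and 12.6% in petals. For a contig higher in sepal, a level under both lip and sepal also counts as closer to the lip. No such share was taken over all contigs tested. The contigs higher in sepal had a median of 8.69 in V3 flowers, against 9.81 in large buds and 9.85 in flowers 1 day after pollination. Of these 737 contigs, 124 (16.8%) were over 2-fold lower in V3 flowers than in each of lip, sepal, petal and pedicel, compared with 21 (3.49%) of the contigs higher in lip and 8.06% of all contigs tested. PATC149247 was at 7.47 and 7.43 on the V3 flower arrays, under its 10.29 and 10.10 in lips, and at 12.45 and 12.50 in flowers 1 day after pollination. PATC138957 was at the floor on both V3 flower arrays. The V3 flowers were scanned in another batch than the lips and sepals and carried the virus probe signal given above, and the part of either was not tested.

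*PaMTN3*, the contig with signal in the lip alone among the floral organs, was at the floor in small and large V3 buds, at 16.21 and 16.19 in open V3 flowers, at 12.27 and 12.25 at 1 day after pollination, at 8.65 and 8.67 at 3 days, and at the floor at 15 days. PATC126569 took a like course, with 5.55 and 5.63 in large buds, 17.02 and 16.98 in open flowers, 10.99 and 11.02 at 1 day and 7.04 and 7.08 at 3 days. In *P. aphrodite* flowers, which are another genotype, *PaMTN3* was at 15.38 and 15.43. *PaAP3-3* and *PaAP3-4*, which were also high in the column, were by contrast already high in small buds, at 13.13 and 15.47.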
